A study of Zea mays with 24 samples.

Results

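The 150 probes described here, which stand for 132 genes, are those whose heat response in the maize cytoline cytTC221 lay farthest above the heat responses of the other 2 lines. They were taken from the 37983 probes that read well above background on all 24 arrays, out of 133671 probes on the array. For each line the heat response was the mean log2 level of the heat-stressed replicates minus that of the controls, and the excess (D) was the response of cytTC221 minus the larger of the responses of TC243 and cytTC248. The members were chosen by D, as the 150 probes where it was highest. D and the 3 heat responses are given below as descriptions, with no test.

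TC243 is the nucleus donor line. The cytolines cytTC221 and cytTC248 (written cytT248 in the study's own text) carry the TC243 nucleus in the cytoplasm, and thus with the mitochondria and chloroplasts, of other inbred lines. All plants were seedlings at the 3-leaf stage, grown in long days (16 h, 26 °C) with cooler nights (8 h, 20 °C). Control seedlings were left so to day 21, and stressed seedlings spent the last 24 h at 40 °C. Each of the 6 groups has 4 arrays, and leaves and stems were pooled, so a lower level cannot be told apart from a smaller share of the cells that express a gene. How the 4 replicates relate to the 3 seedlings per line is not given in the sources used here, and the spread between replicates may be technical. The leaf gene PEPC1, the phosphoenolpyruvate carboxylase of C4 photosynthesis, read 16.1 ± 0.05 (SD, n = 4) in TC243 controls 15.8 ± 0.10 in cytTC221 controls and 15.9 ± 0.12 in cytTC248 controls on the log2 scale of the deposited values. In heat it read 9.71 ± 0.42, 9.07 ± 0.05 and 9.62 ± 0.11, and the part of this loss in the results below was not tested. No seed storage gene could be checked by name.

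Most proteins of chloroplasts and mitochondria are encoded in the nucleus, and the state of these organelles is known to feed back on nuclear transcription, a route called retrograde signalling. Lines that share a nucleus and differ in cytoplasm are used to look at this traffic. In heat, plants in general make heat shock chaperones and lower the expression of many genes of growth and photosynthesis. Among the 132 member genes, 68 were matched to a RefSeq gene and 7 of those have a name, so most members are known here by their identifier only.

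Before the results, 1 array has to be set apart. On the array of cytTC221 control replicate 2, 25 of the 150 members read more than 1 log2 unit below the median of the other 3 replicates, with deviations from -6.01 to -1.25. All 25 low spots lie in columns 1 to 21 of the 170 columns of that array. In columns 1 to 10 of it, 202 of 2171 spots of eligible probes (9.30%) read more than 1 log2 unit low, against 16 of 15652 (0.10%) in columns 111 to 170. Of all eligible probes 296 (0.78%) read that low on this array. Some other arrays had more such probes, with 514 on TC243 stress replicate 1 and 469 on cytTC221 stress replicate 2, but no members among them. The array is thus set apart for its effect on the members. GRMZM2G110681 has 2 spots there. Its spot in column 2 read 8.14, against a median of 13.59 on the other 3 arrays, and its spot in column 59 read 14.25 against 14.24. A low control reading raises the heat response of cytTC221 by construction, so these 25 members are named as members with a low spot and the main counts are also given for the other 125.

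**Figure D1:**
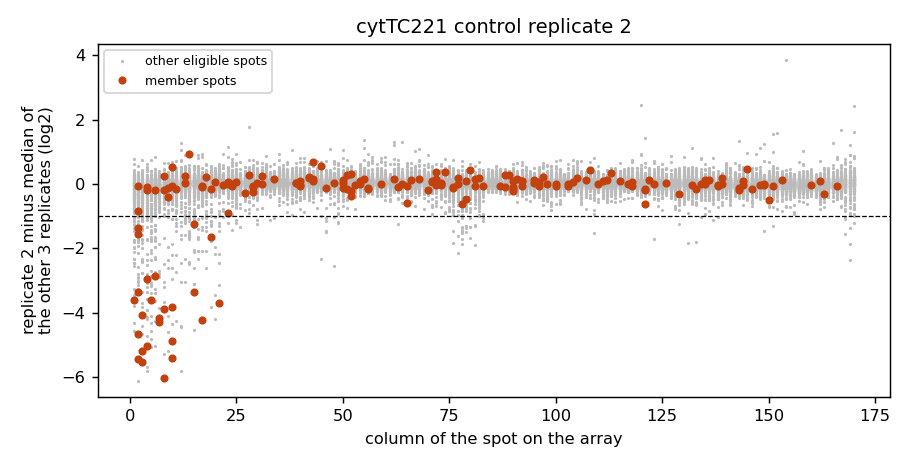
Each point is a spot of an eligible probe on the array of cytTC221 control replicate 2; the x axis is the column of the spot on the array and the y axis its log2 level minus the median of the other 3 replicates. Red points are spots of members. The 25 member spots under the dashed line at -1 all lie in columns 1 to 21.

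With that array left out, 23 of the 25 members with a low spot are no longer among the 150 highest D, and their median D went from 1.46 to 0.52, with a range of -0.08 to 1.31. GRMZM2G013607 (D = 1.28 without the array) and GRMZM2G561172 (1.31) stayed. Of the other 125 members, 123 stayed among the 150 highest, with a median D of 1.44. A further 11 members have at least 1 array more than 1 log2 unit away from the median of its group. Among them GRMZM2G435845 and GRMZM5G846548 were low by 4.23 and 4.4 log2 units on cytTC221 control replicate 4, and with group medians in place of means their D was 0.93 and 0.30. GRMZM2G176179 and GRMZM2G704417 were low by 2.46 and 2.2 log2 units on cytTC248 stress replicate 3, and with group medians their D went from 1.75 to 1.05 and from 1.32 to 0.91.

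D ranged from 4.22 down to 1.26 over the 150 members with a median of 1.45, while over all 37983 eligible probes the median was -0.08 and 42.8% of probes were above 0. At the threshold the last 3 members, GRMZM2G073023, GRMZM2G129196 and GRMZM2G179715, each had D = 1.26. The first probes outside, for GRMZM2G133400, GRMZM2G141607 and GRMZM2G070061, had D of 1.2575, 1.2575 and 1.255. The edge of the set is therefore a point on a continuous range.

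The median heat response of the 150 members was -1.18 in TC243, 0.62 in cytTC221 and -0.98 in cytTC248. Over all eligible probes these medians were -0.02, -0.04 and -0.02. In the 125 members without a low spot they were -0.61, 0.96 and -0.62. These medians do not describe a single member. The response was above 0 in cytTC221 alone in 57 members, beside 3.92% of all eligible probes. It was below 0 in every line in 58 members (42.9%) and above 0 in every line in 31 (40.6%). Members with a low spot, which raises the response of cytTC221, number 8 of the 57, 15 of the 58 and 2 of the 31. The lowest response in cytTC221 was -5.24, for GRMZM2G048136, and the highest was 5.46, for GRMZM2G176179.

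**Figure D2:**
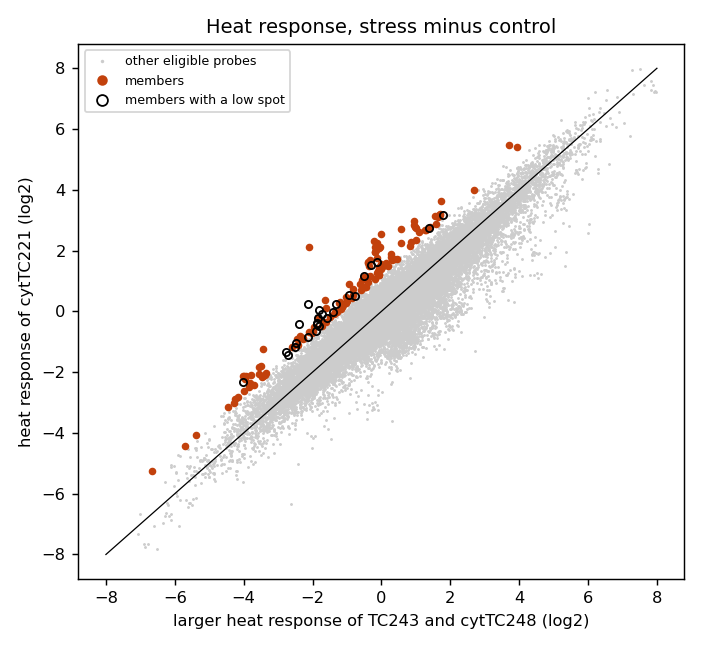
Each point is a probe; the x axis is the larger heat response of TC243 and cytTC248 and the y axis the heat response of cytTC221, both stress minus control in log2. The members, in red or as open circles where they have a low spot, have responses between -5.24 and 5.46 in cytTC221 and lie above the line of equal response.

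The mean level over the 125 members shows the shape of the groups. In TC243 the 4 control arrays read 9.95, 9.96, 9.98 and 9.98 and the 4 stress arrays 8.77, 8.70, 8.73 and 8.69. In cytTC248 the controls read 9.99, 10.04, 10.02 and 10.02 and the stress arrays 8.94, 8.93, 8.93 and 8.98. In cytTC221 the controls read 9.64, 9.64, 9.64 and 9.55 and the stress arrays 10.16, 10.22, 10.24 and 10.16. The cytTC221 controls thus lay below the controls of the other lines and its heated arrays lay above all other arrays. The rule chose the members by their heat response on these same arrays, so this order is partly fixed by it and is a description. No groups overlapped, although the controls of TC243 and cytTC248 lay close to each other. On the same arrays the mean over all eligible probes was between 9.55 and 9.57 in TC243 and cytTC248 and between 9.62 and 9.66 in cytTC221.

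**Figure D3:**
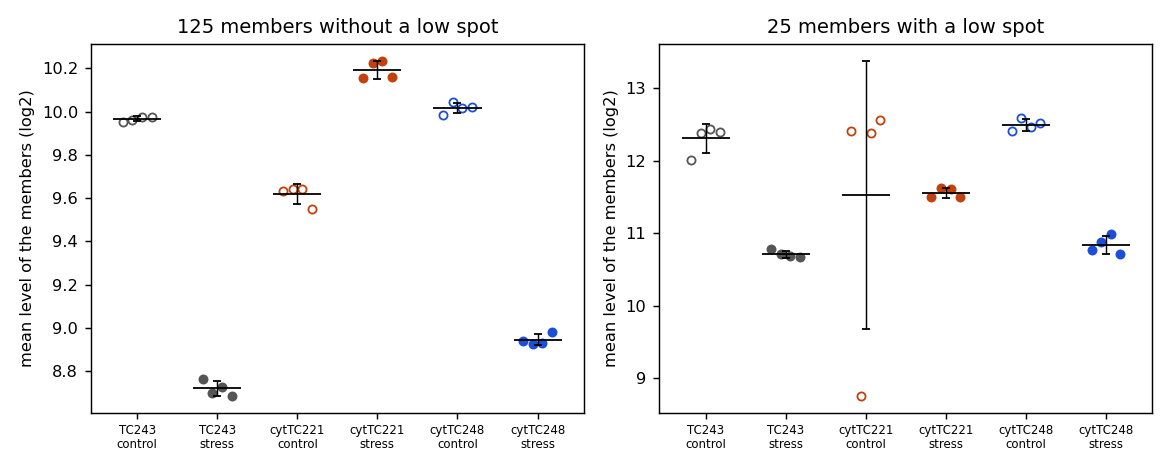
Mean log2 level of the members on each array, by group; open points are controls, filled points stress arrays, and bars are the mean and SD over 4 arrays. Left, the 125 members without a low spot, where heated cytTC221 reads 10.16 to 10.24; right, the 25 members with a low spot, where cytTC221 control replicate 2 reads 8.75 and the other 3 replicates 12.39 to 12.57.

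The members fall into several response patterns when the 4 stress arrays and the 4 control arrays of a line are compared for overlap. In 39 members all stress arrays lay below all control arrays in every line, and cytTC221 was only less low: their median responses were -3.81 in TC243, -2.10 in cytTC221 and -3.69 in cytTC248. This pattern holds for 32.9% of all eligible probes. In 25 members all stress arrays lay above the controls in every line, with medians of 0.87, 2.78 and 1.30, and 30.4% of eligible probes have this pattern. In 23 members the stress arrays lay below the controls in TC243 and in cytTC248 but above them in cytTC221, with medians of -0.77, 0.81 and -0.65 in the order TC243, cytTC221 and cytTC248. Of all eligible probes, 0.582% have this pattern of opposite directions. In 12 members the stress and control arrays overlapped in TC243 and cytTC248 and only cytTC221 was separated, with a median response of 1.54, beside 2.43% of eligible probes. In 30 members both other lines were lower in heat and cytTC221 overlapped, beside 3.86%, and 20 of these 30 are members with a low spot. The stress arrays of cytTC221 also lay above its controls in 6 members that were lower in TC243 and overlapped in cytTC248 (0.424% of eligible probes), in 6 that overlapped in TC243 and were higher in cytTC248 (2.37%), in 6 that overlapped in TC243 and were lower in cytTC248 (0.371%), and in GRMZM2G436295, which was lower in TC243 and higher in cytTC248 (0.1%). The remaining 2 members, both with a low spot, were separated only in cytTC248, where heat was lower (1.8%). The rule itself favours the patterns in which cytTC221 goes up or stays, so these shares are descriptions. The low-spot members number 1 of the 39, 2 of the 25 and none of the 23 and the 12.

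Counted by line, the stress arrays lay above the controls in 79 of 150 members in cytTC221 (38.4% of all eligible probes), in 25 in TC243 (39.4%) and in 32 in cytTC248 (40.7%). They lay below the controls in 39 members in cytTC221 (40.9%), 99 in TC243 (41.4%) and 100 in cytTC248 (42%). In the 125 members without a low spot, the counts above were 77, 23 and 30 and the counts below were 38, 78 and 77.

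A high D can come from a low control level in cytTC221, a high level in heat, or both. In 132 of 150 members every heated cytTC221 array read above every heated array of TC243 and cytTC248, beside 26% of all eligible probes, and 111 of the 132 have no low spot. In 41 members every cytTC221 control array read below every control array of the other lines, beside 2.53%. None of the 41 has a low spot. Both held in 29 members, beside 0.469% of eligible probes. The median difference between cytTC221 and the mean of the other lines was 1.31 in heat and -0.31 in controls over the 150 members, and 1.38 and -0.23 over the 125. Over all eligible probes it was 0.11 and 0.07. The deposited levels share a distribution only within a line, so a level set across lines also carries the small offset between them. With all 24 arrays set on the same distribution, 130 members were above in heat (20.2% of eligible probes), 56 were below in controls (5.24%) and 41 were both (0.85%), and the median difference over all eligible probes was 0.03 in heat and -0.01 in controls.

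**Figure D4:**
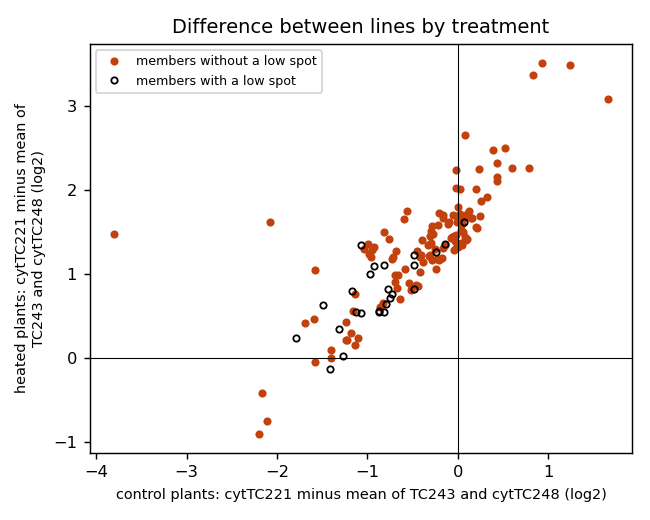
Each point is a member; the x axis is the control level of cytTC221 minus the mean of TC243 and cytTC248 and the y axis the same difference in heated plants, in log2. Most members lie above 0 on the y axis and near or left of 0 on the x axis, with control differences from -3.80 to 1.66 and heat differences from -0.90 to 3.52.

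At one end of this range are members that were already higher in cytTC221 without stress. In 8 members (5.3%) every cytTC221 control array lay above those of the other lines in the deposited values, beside 9.02% of eligible probes. In all 8 the heated arrays did so too, beside 26% of eligible probes. They are 2 probes of GRMZM2G135688 and 1 each of GRMZM2G044908, GRMZM2G131591, GRMZM2G155806, GRMZM2G057519, GRMZM2G095209 and GRMZM2G146818. The smallest of their control differences was 0.21, for GRMZM2G146818, beside a median of 0.07 over all eligible probes. This count was not taken with all arrays set on the same distribution. At the other end, GRMZM2G129196 and GRMZM2G070041 read lower in cytTC221 than in the other lines in both conditions. They are the only 2 members whose heated cytTC221 arrays lay below all others, beside 10.7% of eligible probes. The share of eligible probes apart in both conditions was counted in neither case. For GRMZM2G129196 the controls read 7.68, 7.63, 7.65 and 7.51 in cytTC221, against 9.69 to 9.95 in the other lines, and in heat 7.19, 7.10, 7.09 and 7.18 against 7.89 to 8.19. Its smaller difference in heat was thus measured near the lower end of the scale.

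GNAT21 (GRMZM2G131618), of the GNAT family of acetyltransferases, which move acetyl groups onto proteins and small molecules, had the second highest D, 2.56. In TC243 it read 7.15, 7.05, 7.27 and 7.14 in controls and 6.94, 7.24, 7.25 and 7.02 in heat. The cytTC248 arrays read 7.04, 7.25, 7.13 and 7.25 in controls and 7.06, 7.24, 7.23 and 7.12 in heat. In cytTC221 the controls read 7.37, 7.15, 7.25 and 7.21, and heat gave 9.67, 9.88, 9.93 and 9.71. All groups overlapped in the range from 6.94 to 7.37 except heated cytTC221, which was higher by 2.55, a fold regulation (FR) of 5.87 over its own control. The deposited values carry no background subtraction, so folds of dim genes such as this are understated, and with the scanner's background-subtracted signal D was 3.49. Among the other 17 eligible probes of GNAT genes, D lay between -0.53 and 0.51.

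In RefSeq order GNAT21 has another member 2 genes away, GRMZM2G131591, whose function is not annotated here. Its controls read 8.56, 8.77, 8.82 and 8.74 in cytTC221 and 6.95 to 7.30 in the other lines. In heat it read 10.38, 10.42, 10.51 and 10.40 in cytTC221 and 7.21 to 7.42 in the others. Unlike GNAT21 it was thus apart in cytTC221 without stress too. It is the 1 pair of matched member genes within 10 genes of each other. The eligible gene 2 places on the other side of GNAT21, GRMZM2G131769, had D = -0.13, and GRMZM5G821828, 5 genes beyond GRMZM2G131591, had D = 0.70.

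PPCK4 (GRMZM2G049541) encodes a phosphoenolpyruvate carboxylase kinase, which phosphorylates and so activates the carboxylase that fixes carbon in C4 leaves and feeds the citric acid cycle elsewhere. Its member probe read 11.62, 11.40, 11.44 and 11.36 in TC243 controls and 9.48, 9.76, 9.88 and 9.79 in TC243 heat. In cytTC221 it read 10.59, 9.98, 10.79 and 10.25 in controls and 11.54, 11.70, 11.68 and 11.22 in heat. The cytTC248 arrays read 10.90, 10.58, 11.06 and 10.96 in controls and 10.53, 10.11, 10.73 and 10.59 in heat. The order of the lines in heat, cytTC221, cytTC248, TC243, was without overlap, and heat was above control only in cytTC221. A second probe of PPCK4 that is no member had responses of -0.56, 1.61 and 0.84 in TC243, cytTC221 and cytTC248. PPCK1, with 2 probes, had responses between -3.44 and -4.39 in all lines, those of PPCK2 were between -0.25 and -0.07, and PPCK3 had -1.34, 0.13 and 0.50. The 3 carboxylase genes measured, PEPC1, pep4 and pep7, had D between -0.65 and -0.47, so PPCK4 was the only one of these 7 genes with a member probe.

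The starch phosphorylase gene pho1 (GRMZM2G074158), whose enzyme works on glucan chains in plastids, was higher in heat in every line. It read 9.76, 9.64, 9.72 and 9.43 in TC243 controls and 10.53, 10.22, 10.40 and 10.46 in heat. In cytTC248 the controls read 9.66, 9.68, 9.48 and 9.56 and the heated arrays 10.53, 10.62, 10.66 and 10.61. In cytTC221 the controls, at 8.80, 8.68, 8.79 and 8.74, were the lowest of the 6 groups and the heated arrays, at 11.19, 11.16, 11.15 and 10.97, the highest. The FR was 1.70 in TC243, 5.15 in cytTC221 and 2.01 in cytTC248. A second pho1 probe had D = 1.08. Over the 19 eligible probes of 6 sucrose and starch genes (pho1, sh1, sus1, bt2, AGP2 and agpsl1) the median D was -0.11, and the 17 probes of the other 5 genes had D of at most 0.31.

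PSY1 (GRMZM2G300348), the phytoene synthase that commits precursors to carotenoids, was lower in heat in every line and less so in cytTC221. Its member probe read 13.19, 13.14, 13.12 and 13.03 in TC243 controls and 9.55, 9.77, 9.76 and 9.95 in heat. The cytTC248 arrays read 13.17, 13.22, 12.90 and 13.40 in controls and 9.80, 9.87, 9.70 and 9.92 in heat. For cytTC221 the values were 12.72, 12.79, 12.43 and 12.78 in controls and 10.72, 10.34, 10.84 and 10.76 in heat. Heated cytTC221 was above the other lines without overlap and its controls were below them. All 4 eligible PSY1 probes, of which only 1 is a member, had D between 0.87 and 1.34. The later carotenoid genes measured by name, CRTISO1 (an isomerase) and HYD1 (a hydroxylase), had D between -0.11 and 0.37.

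ACO20 (GRMZM2G126732) encodes an ACC oxidase, the last enzyme of ethylene synthesis. Its member probe read 11.98, 11.70, 11.76 and 11.64 in TC243 controls, and 9.46, 7.0, 9.33 and 9.16 in heat, with replicate 2 far below the rest. The cytTC248 arrays read 11.71, 11.93, 11.59 and 11.62 in controls and 9.59, 9.28, 9.24 and 9.65 in heat. For cytTC221 the values were 11.45, 11.25, 11.93 and 11.22 in controls and 11, 10.42, 10.36 and 10.52 in heat. D rests on cytTC248 as the line with the larger response, so the odd TC243 array does not enter it. A second ACO20 probe had D = 0.54, and ACO31 had D = 0.27.

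The other 2 named members are probes with a low spot. For glossy2 (GRMZM2G098239), a gene needed for the wax of the juvenile leaf, cytTC221 read 12.89, 8.72, 12.69 and 12.99 in controls and 10.43, 10.85, 10.85 and 10.48 in heat. Without replicate 2 its D went from 1.32 to 0.29. For hsp70-4 (GRMZM2G340251), of the HSP70 chaperones that hold and refold proteins, cytTC221 read 14.14, 10.90, 14.28 and 14.25 in controls and 13.94, 13.86, 13.98 and 13.85 in heat. Without replicate 2 its D went from 1.29 to 0.46, and the heat response of cytTC221 from 0.52 to -0.32. Another hsp70-4 probe had D = -0.46. By contrast hsp22, a small heat shock protein, had responses between 7.13 and 7.97 over 3 probes and the 3 lines, with D between -0.75 and -0.69. Over 11 eligible probes of heat shock genes the median D was 0.04.

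**Figure D5:**
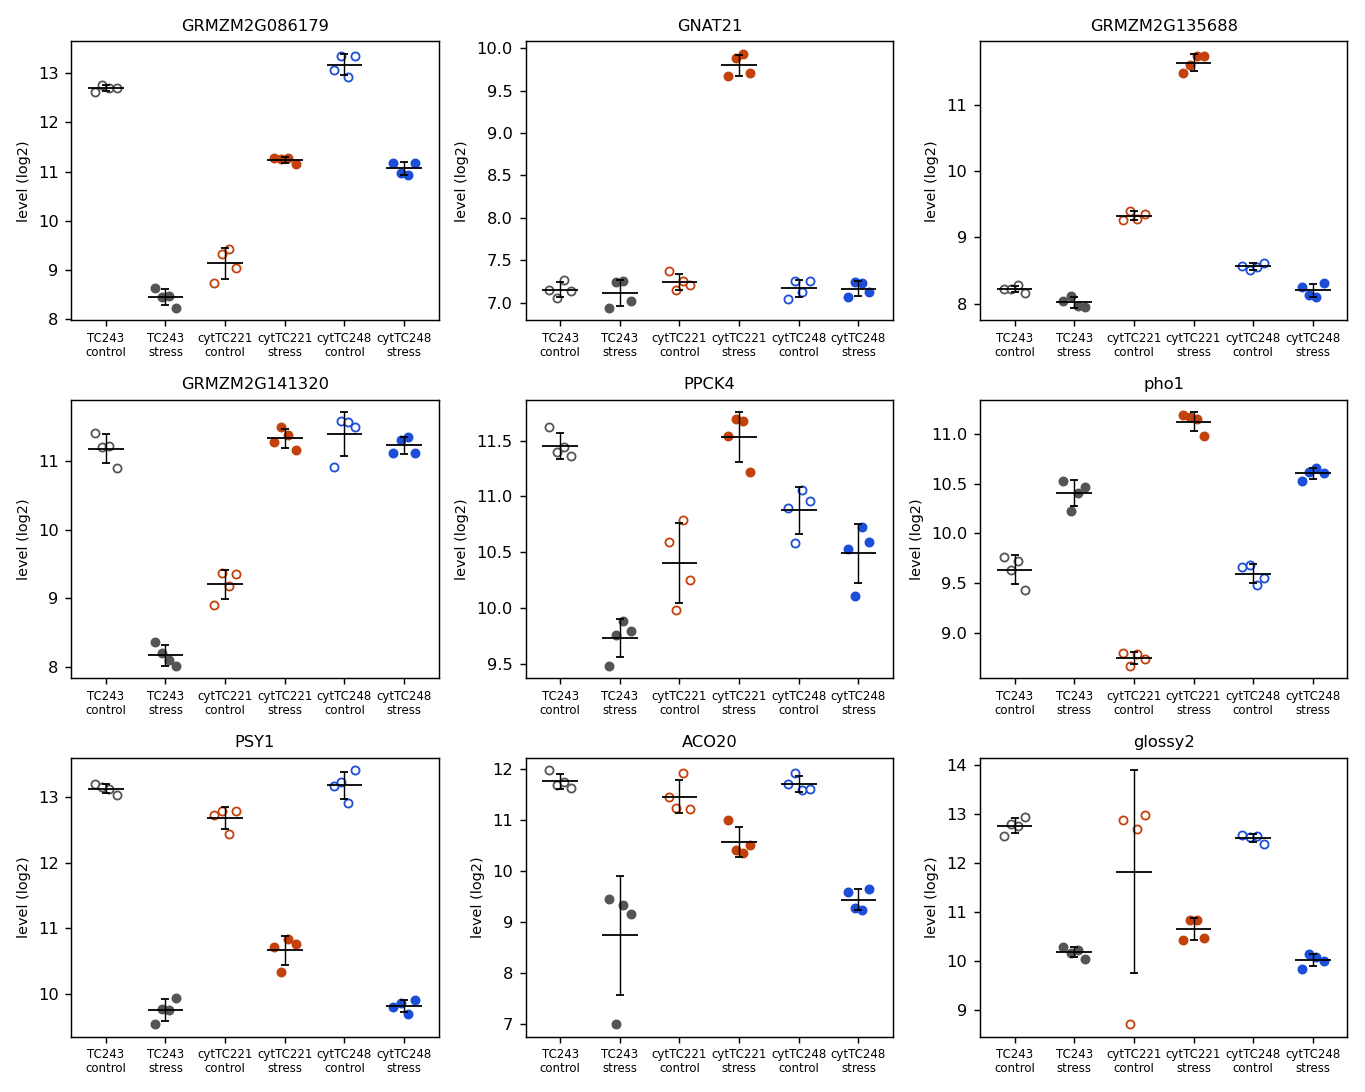
Log2 level of 9 member probes on each array, by group; open points are controls, filled points stress arrays, and bars are the mean and SD over 4 arrays. GNAT21 is apart from the other groups only in heated cytTC221, GRMZM2G086179 and GRMZM2G141320 are low in cytTC221 controls, and 1 cytTC221 control array of glossy2 reads 8.72.

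The member with the highest D, GRMZM2G086179 (D = 4.22), went in opposite directions. It read 12.61, 12.76, 12.71 and 12.70 in TC243 controls and 8.64, 8.46, 8.47 and 8.23 in heat, an 18.9-fold lower level. In cytTC248 it read 13.07, 13.36, 12.93 and 13.36 in controls and 11.18, 10.97, 10.93 and 11.18 in heat. In cytTC221 it read 8.73, 9.33, 9.43 and 9.04 in controls and 11.28, 11.24, 11.29 and 11.14 in heat, an FR of 4.31. The cytTC221 controls were thus far below the controls of the other lines and a little above heated TC243, and heated cytTC221 overlapped heated cytTC248.

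GRMZM2G141320 had a like order of groups. Its TC243 controls read 11.41, 11.20, 11.22 and 10.89 and its heated TC243 arrays 8.37, 8.21, 8.10 and 8.02. For cytTC221 the values were 8.91, 9.37, 9.18 and 9.35 in controls and 11.28, 11.5, 11.37 and 11.16 in heat. In cytTC248 it read 10.91, 11.58, 11.57 and 11.49 in controls and 11.12, 11.31, 11.35 and 11.12 in heat, with overlap. Heated cytTC221 was at the level of cytTC248 and far above heated TC243. Against cytTC248 the separation of cytTC221 thus lay in its controls, and against TC243 it lay in both conditions.

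GRMZM2G135688 was the opposite case, with a level in cytTC221 that was higher in both conditions. Its T02 probe (probes are named by transcript number) read 8.22, 8.23, 8.28 and 8.16 in TC243 controls and 8.04, 8.12, 7.97 and 7.95 in heat. In cytTC221 it read 9.26, 9.40, 9.28 and 9.36 in controls and 11.47, 11.60, 11.73 and 11.74 in heat, an FR of 4.96. In cytTC248 it read 8.57, 8.51, 8.55 and 8.62 in controls and 8.26, 8.14, 8.11 and 8.31 in heat. The T01 probe had D = 2.39 beside 2.51 for this one. The T02 probe of GRMZM2G044908 was also higher in cytTC221 in both conditions, but there heat was above control in the other lines too, by 0.57 in TC243 and 0.34 in cytTC248. It read 10.37, 10.34, 10.34 and 10.13 in controls and 13.10, 12.86, 13.11 and 12.94 in heat in cytTC221, and 8.79 to 9.71 on all arrays of the other lines. The T01 probe of this gene, also a member (D = 1.54), did not share this. Its folds of stress over control were 0.95 in TC243, 2.76 in cytTC221 and 0.74 in cytTC248. On it only heated cytTC221 was apart from the other lines, and the controls overlapped.

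GRMZM2G044398 holds 5 of its 7 eligible probes among the members, with D between 2.13 and 2.32. On its T04 probe the cytTC221 controls read 7.96, 7.95, 7.96 and 8.13 and the heated arrays 9.93, 10.31, 10.17 and 10.07. The controls of the other lines read 8.74 to 9.23 and their heated arrays 8.50 to 8.95. So on this probe cytTC221 was lowest without stress and highest in heat. The other 2 eligible probes of the gene did not share this: T02 had D = -0.23, with responses of 1.27, 1.09 and 1.32 in TC243, cytTC221 and cytTC248, and T01 had D = -0.46, with 1.25, 0.79 and 1.18. Probes of 1 gene share its transcripts and are not separate observations.

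GRMZM2G013607 and GRMZM2G081180, also among the 12 highest D, each have an odd cytTC221 control array. GRMZM2G013607 read 12.12, 7.85, 12.10 and 12.48 in cytTC221 controls and 11.33, 11.5, 11.45 and 11.26 in heat. Its controls in the other lines read 11.54 to 12.44 and their heated arrays 9.86 to 10.27. Heated cytTC221 was thus above the heated arrays of the other lines, beside 26% of all eligible probes. The low spot does not enter that comparison, but the heated levels enter the rule. Without replicate 2 the heat response of cytTC221 went from 0.25 to -0.85. With group medians D was 1.45. GRMZM2G081180 read 9.79, 11.80, 11.94 and 11.63 in cytTC221 controls, with replicate 1 low, and 10.15, 9.95, 10.18 and 9.99 in heat. The other lines read 11.93 to 12.28 in controls and 8.41 to 8.74 in heat. With group medians D of GRMZM2G081180 was 1.85 in place of 2.21.

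Another 11 genes have 2 to 4 member probes each. GRMZM2G094353, with 4, was lower in heat in every line, with D between 1.69 and 1.89. On its T02 probe TC243 read 13.05 to 13.30 in controls and 9.0 to 9.35 in heat, and cytTC248 13.28 to 13.66 and 9.26 to 9.68. In cytTC221 the controls read 13.0 to 13.47 and the heated arrays 10.83 to 11.35. Here the controls overlapped between cytTC221 and the other lines and only the heated arrays were apart. The 3 probes of GRMZM2G061900 had D between 1.42 and 1.56, with responses between -0.47 and 0.14 in the other lines. The value of -0.47 holds an odd array of the T01 probe, cytTC248 stress replicate 2, which read 6.96 against 8.93 to 9.13 on the other 3.

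GRMZM2G433989, GRMZM2G575696 and GRMZM2G472384, 3 members chosen for mention after their values were seen, had nearly the same profile. Their responses were between -0.42 and -0.34 in TC243 and cytTC248 and between 1.60 and 1.70 in cytTC221. Their levels in cytTC248 were also lower than in TC243 in both conditions, with limma differences from -1.21 to -0.98 log2 units. Sequence similarity between these genes was not tested.

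Where a member probe sits in duplicate on the array, D can be taken from each spot. The rule used the mean of both spots, so a high D at each is partly fixed by it and is given as a description. Among the 34 such members without a low spot, D differed between the spots by a median of 0.13, and in 33 both spots gave D above 1. The exception was GRMZM2G375398, with 2.42 from one spot and 0.38 from the other. Of the 132 member genes, 44 have in all 76 further eligible probes that are no members. Their median D was 0.69, and 50 of the 76 were above 0.5, beside 8.6% of all eligible probes. For the 28 of these genes with no low spot the median was 0.84 over 44 probes. The further probes measure the chosen genes on the same arrays, so their D is a description and no separate support.

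The heat response on single slides, where a slide holds a control and a stress array of a line, is given as a description, since the rule used these arrays. Over the 125 members the median response was -0.58 and -0.96 on the slides with both treatments of TC243, 1.1 and 1.01 on those of cytTC221, and -0.65 and -0.62 on those of cytTC248. No slide holds both treatments of more than 1 line, so D itself cannot be taken within a slide.

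The members were chosen against the larger response of TC243 and cytTC248, so both responses enter the rule, and the differences between these lines are given as a description that supports nothing about the members. In limma, with Benjamini-Hochberg adjustment over all 37983 eligible probes, the heat response of 19 members (12.7%) differed between cytTC248 and TC243 at an adjusted p under 0.01, beside 11.8% of all eligible probes. It was higher in cytTC248 in 15 of them (background 4.53%) and lower in 4 (7.25%). In controls 29 members differed between these lines, beside 10.7%, of which 19 were higher in cytTC248 (6.21%) and 10 lower (4.53%), and in heat 33 members did, beside 14.9%. In heat, 26 of the 33 were higher in cytTC248 (background 6.53%) and 7 were lower (8.34%). With all 24 arrays set on the same distribution the counts were 20, 28 and 33. None of the called members has a low spot, so the 19, 29 and 33 called all lie among the other 125. In the members with a low spot the odd array widens the error of the fit. There the SE of the difference in heat response was 0.34 to 1.12, so a call was unlikely. The slide positions of control and stress arrays are swapped between TC243 and cytTC248, so an effect of position cannot be told apart from these differences. Over all 150 members, which include those with a low spot, the share with an unequal response is close to the background. The median size of the difference was 0.18 in the members and 0.20 over all eligible probes.

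The largest of these differences was in GRMZM2G141320, whose response in cytTC248 exceeded that in TC243 by 2.84 ± 0.19 log2 units (limma, SE). It was followed by GRMZM2G086179, with 2.13 ± 0.17, and GRMZM5G836174, with 1.55 ± 0.18. GRMZM5G836174 read 13.89, 13.75, 14.16 and 13.97 in TC243 controls and 10.09, 9.95, 10.16 and 9.86 in heat. In cytTC248 it read 14.42, 13.92, 14.58 and 14.05 in controls and 11.83, 11.86, 11.72 and 12.06 in heat, and in cytTC221 13.00, 13.21, 13.20 and 12.80 in controls and 12.32, 12.21, 12.23 and 12.22 in heat. PPCK4 also differed, by 1.34 ± 0.22. For GNAT21 the difference between cytTC248 and TC243 was 0.04 ± 0.11 (SE), for PSY1 0.01 ± 0.16 and for pho1 0.24 ± 0.11.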

How the data were processed

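RNA of 24 maize samples was labelled with Cy3 and hybridised to 1-colour Agilent arrays, of which 6 slides held 4 each. The authors deposited the scanner files of Feature Extraction (11.5.1.1), with a median and a processed intensity for each spot, and a value table on the log2 scale. Within a line its columns share nearly the same distribution, and each has nearly the same spot order as the uncorrected median intensity (Spearman correlation at least 0.9999). Between lines the distributions differ a little (upper quartile 7.60 to 7.61 in TC243, 7.64 to 7.65 in cytTC221 and 7.58 in cytTC248). The table was therefore read as log2 signal, quantile-normalised for each line apart, with no background subtraction; its values run from about 5.9, with a median of 6.51. On an array 36.9% to 43.1% of spots were well above background, and no spot was saturated. The number of arrays limits the precision.

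Spots of 1 probe were averaged. Probes well above background on all 24 arrays (37983) were kept, so every member passed this filter. Cytoline differences between cytTC248 and TC243 were tested with limma 3.58.1 in R 4.3.3, with 1 fit of 6 groups, Benjamini-Hochberg adjustment over all eligible probes and a threshold of 0.01, tested on simulated data first. The members and gene lists were chosen with earlier results of these data known. Gene names came from the RefSeq table of assembly Zm-B73-REFERENCE-NAM-5.0, by unique match of the older gene identifier. It matched 10147 of 27876 eligible genes and holds no descriptions, so the lists planned on descriptions were searched in gene names only: 8 of 24 lists found a gene, and heat shock proteins alone held a member. The gene families named in the text were put together from names after the data were seen. Described by name are the 12 members with the highest D, all named members, the first member of each list, the probes at the threshold and the 3 members with the largest called difference between cytTC248 and TC243; other members were chosen after their values were seen. The array and RefSeq builds differ, so no positions and no sequences are given. Because levels are set across lines, the table was also quantile-normalised over all 24 arrays, an alternative chosen after seeing the data. The other alternatives covered the signal, background correction, normalization, centring, slide and replicate blocks, filter, probes of a gene and each replicate left out.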

Additional observations from a re-analysis of the deposited data

Results flagged for a closer look

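In 21 of 162 groups of 4 arrays, over the named probes and the members' mean, the highest or lowest array stood apart from the other 3 by a gap past Dixon's critical value. For independent groups chance alone marks about 1 in 20. The groups here share arrays, and some probes are of the same gene. Most of the probes were also chosen for a high D, which a low cytTC221 control raises. The count can therefore not be set against that rate. The mean of the 150 members was 9.50 in cytTC221 control replicate 2, against 10.05 to 10.10 in the other 3. The mean of the 125 members without a low spot was 9.55 in cytTC221 control replicate 4, against 9.64 at the others.

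Low in the cytTC221 controls were GRMZM2G013607 T01 (7.85 in replicate 2, others 12.10 to 12.48), GRMZM2G098239 T02 or glossy2 (8.72 in replicate 2, others 12.69 to 12.99), GRMZM2G340251 T04 or hsp70-4 (10.90 in replicate 2, others 14.14 to 14.28), GRMZM2G081180 T01 (9.79 in replicate 1, others 11.63 to 11.94) and GRMZM2G044908 T02 (10.13 in replicate 4, others 10.34 to 10.37). High there was GRMZM2G044398 T04 (8.13 in replicate 4, others 7.95 to 7.96).

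In the TC243 controls the array apart was at 8.33 for GRMZM2G135688 T01, 10.38 for GRMZM2G073023 T01, 9.69 for GRMZM2G129196 T01, 11.37 for GRMZM2G179715 T02 and 11.49 for GRMZM2G141607 T03. In heated TC243 it was at 7.0 for GRMZM2G126732 T02 or ACO20 (others 9.16 to 9.46) and at 9.71 for GRMZM2G044908 T02 (others 9.35 to 9.40). In the cytTC248 controls it was at 8.42 for GRMZM2G135688 T01, 10.91 for GRMZM2G141320 T01, 11.93 for GRMZM2G081180 T01, 14.35 for GRMZM2G340251 T04 and 12.05 for GRMZM2G141607 T03. In heated cytTC221 it was at 9.59 for GRMZM2G070061 T01.

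The heat response of cytTC248 exceeded that of TC243, in the limma fit over all eligible probes, by 2.13 for GRMZM2G086179 T01, 2.84 for GRMZM2G141320 T01, 1.34 for GRMZM2G049541 T02 (PPCK4) and 1.55 for GRMZM5G836174 T01. Both responses entered the rule that chose these members.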

How the results depend on the processing

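The median D of the 150 members was 1.45. With the scanner's processed signal it was 1.87 and from heat responses within slides 1.575, which moved it by more than the spread between replicates (SD 0.12). That SD is of the mean level of the 150 members and includes the low array, cytTC221 control replicate 2. It is therefore a wide measure, and smaller shifts are not shown to be within the spread of the other arrays. Under all other alternatives it lay between 1.38 and 1.49, and with single arrays left out between 1.40 and 1.53. At least 125 members stayed among the 150 highest D when an array was left out, with the lowest count without cytTC221 control replicate 2. The other alternatives kept 100 to 150 members, with 104 for the processed signal and 100 where probes above background in at least 1 group (64523) were ranked. Group medians in place of means, chosen after seeing the data, kept 117, and all 24 arrays on the same distribution, chosen likewise, kept 145. The members called between cytTC248 and TC243 numbered 18 to 21 for the heat response, 22 to 29 in controls and 28 to 34 in heat with single arrays left out, and 18 to 21, 25 to 32 and 31 to 38 under the others. With the replicate number as a block they were 19, 29 and 33. Deviations of same-numbered arrays correlated by a median of 0.01 (10 of 60 pairs above 0.1), which gave no sign of pairing by number. Replicate numbers were taken from the sample titles throughout. The source label of cytTC221 control replicates 3 and 4 says replicate 2. For arrays at the same slide position the median was 0.08 (16 of 48 pairs above 0.1). Controls of TC243 and cytTC221 sat at positions 1 and 3 and their stress arrays at 2 and 4. In cytTC248 this was reversed. Position thus cannot be told apart from treatment within a line, and its effect was not tested. Of 825 values of D for 25 named probes, none changed sign and 42 moved by more than the probe's spread, 19 of them with the processed signal. These probes have a high D by choice, so a change of sign was unlikely. Without cytTC221 control replicate 2, D was as low as 0.29 for glossy2 and 0.46 for hsp70-4. Dim probes limit the folds, because the log2 values hold background.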
